A study of Mus musculus with 2 samples.

Results

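Haemoglobin-rich barcodes were examined in 2 droplet single-cell RNA libraries of mouse blood mononuclear cells. They were selected on their measured values: a barcode had to reach a minimum of unique molecular identifiers (UMIs, each standing for 1 captured RNA molecule), which the smallest one kept passed with 786, and more than 50% of its UMIs had to come from genes whose symbol starts with Hba- or Hbb-. No minimum number of genes was set. The rule found 387 of the 9787 barcodes that reached the minimum, of which 361 were in the mutant library and 26 in the wildtype library. Both groups were female C57Bl/6 mice aged 10 weeks. Mutants had Mvk alleles V377I and del91 (MvkV377I/del91), and wildtype mice were Mvk+/+. Mvk encodes mevalonate kinase, an early enzyme of isoprenoid and sterol synthesis. Blood of 3 mice was pooled per genotype and made into 1 library each, so genotype, mouse pool, batch and library cannot be told apart, no test over animals was possible, and all intervals given here cover counting error only. In both groups the cells had passed a Ficoll gradient, lysis of red cells in ammonium chloride and a sort for cells negative for DAPI and for Ter119, a surface antigen of red cells.

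Reticulocytes are red cells that have lost their nucleus but still hold RNA. They enter the blood with a large store of alpha- and beta-globin mRNA and with transcripts for haem synthesis, antioxidant enzymes and the ubiquitin and autophagy machinery that clears their organelles and ribosomes, and they lose this RNA as they become erythrocytes. In droplet libraries any barcode also collects some free RNA, released from other cells into the suspension. Free RNA was read from barcodes with 1 to 20 UMIs, and barcodes with 21 to 100 UMIs served as a second estimate. The former had a median of 1 UMI in both libraries, the latter 43 (mutant) and 34 (wildtype). Below, free RNA means the former, and which set is nearer to the RNA of the suspension was not tested.

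Mvk itself had no UMI in the haemoglobin-rich barcodes of either library. In the other barcodes it had a UMI in 1.10% of mutant and 1.24% of wildtype ones, with 47 and 67 UMIs in all. At 85789 and 7014 non-haemoglobin UMIs, Mvk was not detectable in haemoglobin-rich barcodes at this depth, and a 3′ count does not report the alleles.

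Haemoglobin in adult mice is built from the alpha chain genes Hba-a1 and Hba-a2 and the beta chain genes Hbb-bs and Hbb-bt, and these 4 genes supplied nearly all UMIs that selected the barcodes. In GRCm38 (mm10) with the GENCODE M21 annotation, Hba-a1 lies at chr11:32283511-32284465 and Hba-a2 at chr11:32296489-32297298, both on the plus strand. Hbb-bs lies at chr7:103826534-103828096 and Hbb-bt at chr7:103812524-103813996, both on the minus strand. The 250 bases before each RefSeq start are shown as the upstream sequences of the genes whose RNA selected the barcodes. They are RefSeq sequences on GRCm38.p6, given 5′ to 3′ on the strand of the gene, at chr11:32283422-32283671 for Hba-a1, chr11:32296242-32296491 for Hba-a2, chr7:103827929-103828178 for Hbb-bs and chr7:103813924-103814173 for Hbb-bt. GENCODE M21 places the gene start inside each of the 4 windows, so part of each window lies within the gene as annotated there. Capitals mark matches on either strand to GATAA (the core of the GATA factor motif), to the CCAAT box, to the CACCC motif of Krüppel-like factors and to the TATAA box.
Hba-a1: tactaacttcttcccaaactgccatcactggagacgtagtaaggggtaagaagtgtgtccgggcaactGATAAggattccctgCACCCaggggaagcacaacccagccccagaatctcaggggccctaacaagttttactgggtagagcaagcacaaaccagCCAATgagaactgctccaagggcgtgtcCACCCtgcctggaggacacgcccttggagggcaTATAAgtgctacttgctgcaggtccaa
Hba-a2: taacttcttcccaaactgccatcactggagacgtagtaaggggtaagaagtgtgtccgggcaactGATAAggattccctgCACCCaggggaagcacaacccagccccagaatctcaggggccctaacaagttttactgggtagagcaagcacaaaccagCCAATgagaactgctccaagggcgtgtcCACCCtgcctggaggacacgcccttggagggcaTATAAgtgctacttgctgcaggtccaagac
Hbb-bs: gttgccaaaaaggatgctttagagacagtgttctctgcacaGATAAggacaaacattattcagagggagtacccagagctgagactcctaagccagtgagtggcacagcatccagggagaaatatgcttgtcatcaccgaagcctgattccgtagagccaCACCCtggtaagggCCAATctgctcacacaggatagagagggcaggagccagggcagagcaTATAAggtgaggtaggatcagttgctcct
Hbb-bt: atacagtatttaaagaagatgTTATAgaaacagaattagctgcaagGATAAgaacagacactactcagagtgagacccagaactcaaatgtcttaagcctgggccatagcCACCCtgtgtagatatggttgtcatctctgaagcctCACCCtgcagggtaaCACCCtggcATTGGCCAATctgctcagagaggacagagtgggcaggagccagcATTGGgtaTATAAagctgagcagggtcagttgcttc
The alpha windows share an unbroken run of 247 bases, whereas the longest run shared by the beta windows is 14 bases. All of these motifs were present in each of the 4 windows, and no matches overlapped. Among 32851 RefSeq windows of the same length, 22.6% held GATAA, 33.8% held CCAAT, 52.0% held CACCC, 22.8% held TATAA and 0.968% held all of them. A match describes the letters only. Over the last 300 bases of their transcripts, near which a 3′ library is read, Hba-a1 and Hba-a2 differed at 1 of 284 aligned positions and Hbb-bs and Hbb-bt at 39 of about as many (87.0% identity). The split between Hba-a1 and Hba-a2 is therefore uncertain. How reads that match both genes were counted is not given in the sources used here, and its effect on the alpha sum and on the alpha-to-beta ratios was not tested.

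Haemoglobin-rich barcodes made up 7.98% of the mutant barcodes that reached the UMI minimum (361 of 4524, 95% Clopper-Pearson interval 7.21 to 8.81) and 0.494% of the wildtype ones (26 of 5263, 0.323 to 0.723). The share was 16.2 times as high in the mutant library (exact interval 10.8 to 25.1). Total depth was 14513059 UMIs for the mutant library and 15385199 UMIs for the wildtype one. Haemoglobin outside these barcodes differed between the libraries in the same direction. It was 5.04% of free-RNA UMIs in the mutant library and 0.355% in the wildtype one, a ratio of 14.2, and 2.61% against 0.328% in barcodes with 21 to 100 UMIs, a ratio of 7.94. Haemoglobin-rich barcodes held 80.2% of all haemoglobin UMIs in the mutant library and 77.9% in the wildtype library. A haemoglobin UMI was seen in all but 42 of the other 4163 mutant barcodes (1.01% without one), whereas 3039 of the other 5237 wildtype barcodes (58.0%) had none. Whether more red cells remained after lysis and sorting or each gave more RNA was not tested, and neither the lysis nor the gate of each pool is recorded in the labels.

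**Figure D1:**
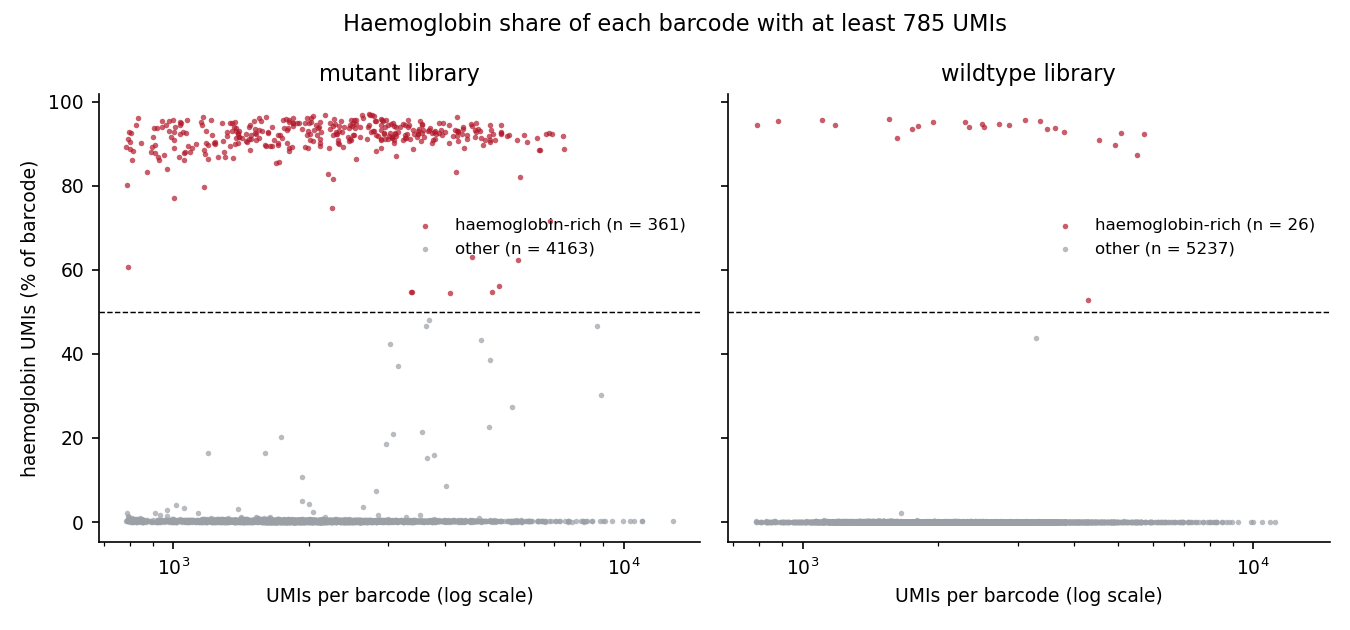
Haemoglobin UMIs as a percentage of each barcode's UMIs against its UMIs on a log axis, for every barcode that reached the UMI minimum in the mutant library (left) and the wildtype library (right). Red points are haemoglobin-rich barcodes, grey points are all others, and the dashed line is the 50% threshold; few barcodes lie between the cloud above 80% (349 mutant, 25 wildtype) and the one near 0.

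The haemoglobin share separated into a high and a low cloud with few barcodes between them. In the mutant library 349 barcodes lay above 80% haemoglobin, 12 between 50% and 80% and 19 between 10% and 50%. The wildtype library had 25, 1 and 1. The nearest barcodes inside and outside the 50% threshold were at 54.6% and 48.0% in the mutant library and at 52.8% and 43.8% in the wildtype library. The UMI threshold cut through a continuous range. Among barcodes with more than 100 UMIs that fell short of it, another 166 mutant and 19 wildtype ones had more than 50% haemoglobin. The haemoglobin-rich barcodes nearest to it inside had 786 UMIs (mutant) and 790 UMIs (wildtype), and the nearest outside fell 1 UMI short in the mutant library and had 755 UMIs in the wildtype one. No haemoglobin-rich barcode sequence was haemoglobin-rich in both libraries, and 4 mutant and 1 wildtype of them had at least 100 UMIs in the other library. Of all 4524 mutant and 5263 wildtype barcodes that reached the minimum, only 30 were shared. The absence of shared haemoglobin-rich barcodes therefore says little about them.

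The markers fixed for the label were present. Both Hba-a1 and Hbb-bs were seen in all 361 mutant and all 26 wildtype barcodes, which the selection all but required. Alas2, the erythroid enzyme that starts haem synthesis, had a UMI in 329 of 361 mutant barcodes (91.1%) and 21 of 26 wildtype ones (80.8%), against 1.44% and 0.0382% of the other barcodes of the same libraries. Bpgm, which makes the bisphosphoglycerate that lowers the oxygen affinity of haemoglobin, had one in 260 (72.0%) and 17 (65.4%), against 4.30% and 4.28% of the other barcodes. Neither was seen in 16 mutant barcodes (4.43%) and 3 wildtype ones (11.5%). Those 16 and 3 had medians of 1071 and 1622 UMIs, below the medians of all haemoglobin-rich barcodes. The median per barcode was 3 Alas2 UMIs for the mutant and 2.5 for the wildtype library, and 2 and 1 Bpgm UMIs.

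Haemoglobin-rich barcodes were as large as leukocyte barcodes in UMIs but carried far fewer genes. They held a median of 2299 UMIs (range 786 to 7373) in the mutant library and 2627 (790 to 5733) in the wildtype one, and the other barcodes held 1950 and 2032. The median number of genes was 127 (35 to 1093) in the mutant library and 121 (41 to 971) in the wildtype one, against 881 and 908 in the other barcodes. With every barcode thinned to the UMI minimum the medians were 57 and 46.5 genes, against 453 and 454. A minimum of 200 genes would have kept 69 of the 361 mutant and 7 of the 26 wildtype barcodes. After removal of haemoglobin, medians of 163 UMIs (mutant) and 143 UMIs (wildtype) remained. When 50 of these UMIs were drawn per barcode, haemoglobin-rich barcodes gave medians of 45 genes (mutant) and 46 genes (wildtype), against 46 in the other barcodes of each library; 7 mutant and 3 wildtype barcodes had too few UMIs to enter.

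**Figure D2:**
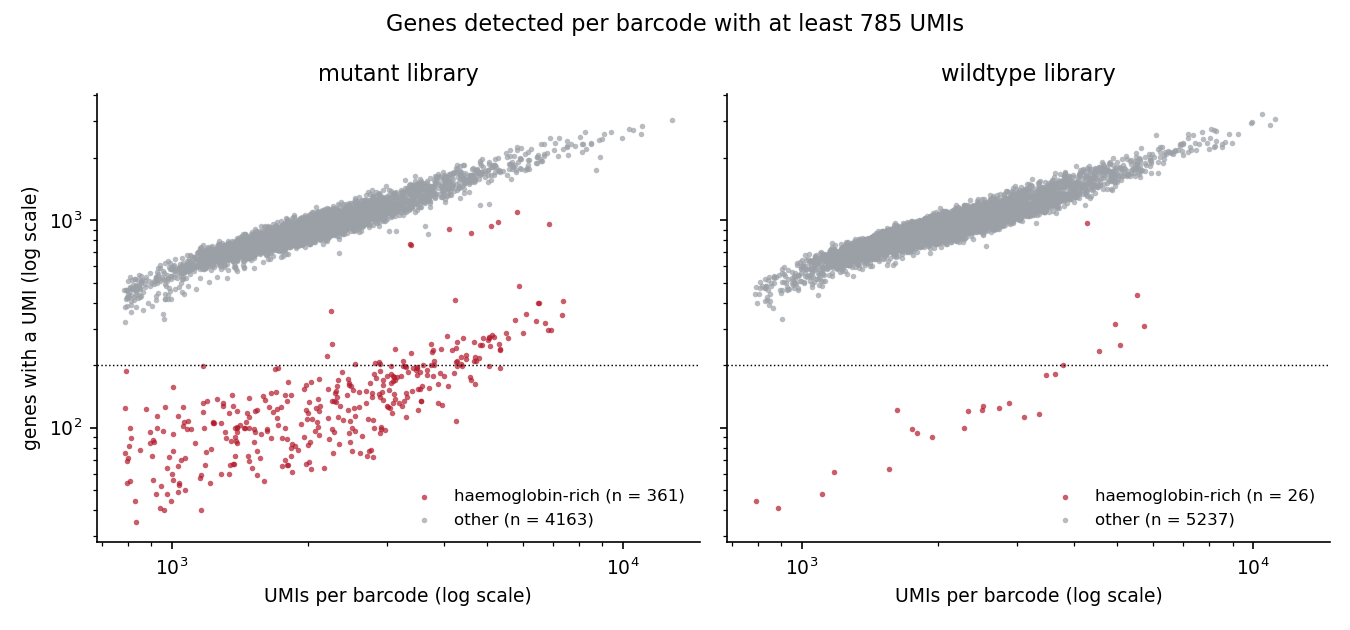
Genes with a UMI against UMIs per barcode, both on log axes, in the mutant library (left) and the wildtype library (right), with haemoglobin-rich barcodes in red and all other barcodes in grey. The dotted line is at 200 genes; 69 of 361 mutant and 7 of 26 wildtype haemoglobin-rich barcodes reach it.

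Of the haemoglobin genes, Hbb-bs gave the most UMIs, with 45.1% of haemoglobin UMIs in mutant and 44.1% in wildtype haemoglobin-rich barcodes. Hba-a1 gave 24.5% and 24.97%, Hba-a2 22.3% and 23.3%, and Hbb-bt 8.14% and 7.64%. The embryonic chains were at or near 0: the mutant barcodes held 2 UMIs of Hbb-bh1 and 1 of Hbb-bh2 and none of Hbb-y or Hba-x, and the wildtype barcodes held none of these 4. Alpha-chain UMIs per beta-chain UMI were 0.880 in mutant and 0.934 in wildtype haemoglobin-rich barcodes. Single barcodes spread far more widely than that difference, from 0.378 to 5.83 around a median of 0.881 in the mutant library and from 0.380 to 1.53 around 0.957 in the wildtype library.

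The haemoglobin of the other barcodes had another make-up. In other barcodes with at most 10% haemoglobin the alpha-to-beta ratio was 0.435 (0.424 to 0.447) in the mutant library and 0.415 (0.384 to 0.449) in the wildtype one, lower than in the haemoglobin-rich barcodes of both libraries. Other barcodes with 10% to 50% haemoglobin lay close to the haemoglobin-rich ones, at 0.845 in the mutant library (19 barcodes) and 0.928 in the wildtype one (1 barcode only). Free RNA lay between, at 0.744 and 0.641. Hbb-bs per Hbb-bt was 5.54 in mutant and 5.77 in wildtype haemoglobin-rich barcodes, against 9.27 and 10.1 in other barcodes with at most 10% haemoglobin. This ratio also differed with size in the mutant library. Among barcodes above 80% haemoglobin its median over barcodes was 8.43 between 100 UMIs and the minimum (n = 86), 7.06 from there to below 1500 (n = 98), 5.54 from 1500 to below 3000 (n = 139) and 5.44 at 3000 or more (n = 112). In the wildtype library the same classes held 11, 4, 11 and 10 barcodes with medians of 6.85, 13.5, 5.89 and 5.33. Sharing of reads between the beta genes by the counting was not tested.

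With haemoglobin removed, 85789 UMIs remained in mutant and 7014 in wildtype haemoglobin-rich barcodes, over 6836 and 2161 genes. Levels below are UMIs of a gene per 1000000 of these non-haemoglobin UMIs (CPM). Against free RNA a gene was measured where its UMIs in haemoglobin-rich barcodes and its free-RNA UMIs, scaled to the same total, summed to at least 20. Between libraries it was measured where both sets of haemoglobin-rich barcodes together held at least 20 UMIs. A measured gene is called higher or lower where it differed at least 2-fold with a 95% exact interval that excluded 1. Since the barcodes were chosen by their haemoglobin, the comparison with free RNA is a description of what the barcodes held. In the mutant library 162 of 1050 measured genes were higher than in free RNA (15.4%) and 113 were lower (10.8%). In the wildtype library 19 of 122 were higher (15.6%) and 5 were lower (4.1%). Of the 19, 18 were also higher in the mutant library, which is 94.7% of the wildtype list and 11.1% of the mutant one. The 162 genes made up 28.7% of the non-haemoglobin UMIs of the mutant haemoglobin-rich barcodes and 2.70% of those of mutant free RNA.

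**Figure D3:**
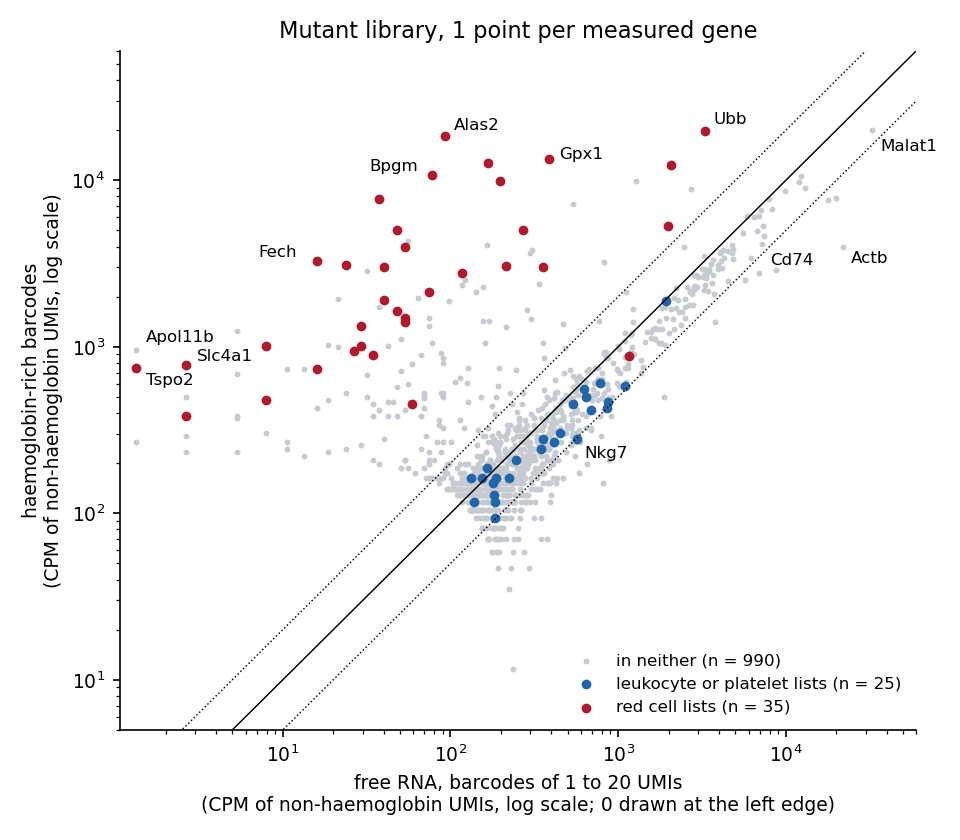
CPM of non-haemoglobin UMIs in mutant haemoglobin-rich barcodes (vertical) against mutant free RNA (horizontal), both on log axes, with 1 point for each of the 1050 measured genes; the solid line marks equal levels and the dotted lines a 2-fold difference. Genes of the red cell lists (red, 34 of 35 higher) lie mostly above the line, and genes of the leukocyte and platelet lists (blue, none of 25 called higher) lie near or below it. Of all 1050 genes, 162 were called higher and 113 lower.

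Red cell genes were taken from 7 lists with 79 genes in all. In the mutant library 35 of them were measured against free RNA, and 34 were higher. Over all 1050 measured genes 162 were higher (15.4%), and the median log2 difference was -0.18. A gene rare in free RNA was measured only where the haemoglobin-rich barcodes held it, and was then all but bound to be higher. This count and those per list below are therefore descriptions only. They say little of the other 44, of which 16 had no UMI. In the wildtype haemoglobin-rich barcodes 40 of the 79 had no UMI. The lists made up 16.3% of non-haemoglobin UMIs in mutant and 10.7% in wildtype haemoglobin-rich barcodes, against 1.15% and 0.993% in free RNA.

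Haem synthesis was represented by its first and last enzymes. Alas2 had 1581 UMIs, or 18429 CPM (17532 to 19360), in mutant and 80 UMIs, or 11406 CPM (9044 to 14196), in wildtype haemoglobin-rich barcodes, against 93.2 and 10.9 CPM in free RNA. It was 198-fold above free RNA in the mutant library (142 to 285). Fech, which inserts iron into the porphyrin ring, had 280 UMIs and 3264 CPM in the mutant and 24 UMIs and 3422 CPM in the wildtype barcodes, 204-fold (92.7 to 561) and 393-fold (135 to 1557) above free RNA. Of the other listed genes of the pathway and its transporters, Urod had 14 UMIs in the mutant barcodes, Cpox, Uros, Alad and Ppox had 1 to 5, and Slc25a38, Abcb10 and Abcb6 had none. All of those named were at 0 in the wildtype barcodes. Alas2 lies at chrX:150547375-150570638 and Bpgm at chr6:34476207-34505613.

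Of 8 genes of iron handling, 3 were measured against mutant free RNA and all 3 were higher, under the limit on measured genes given above. The ferritin chains Ftl1 and Fth1 had 12426 and 5292 CPM in mutant and 11548 and 5275 CPM in wildtype haemoglobin-rich barcodes, 6.01-fold and 2.67-fold above free RNA in the mutant library. Ftl1 has near-identical copies, so its count is uncertain. Slc25a37, the mitochondrial iron importer mitoferrin, had 115 UMIs in mutant and 15 in wildtype barcodes. The transferrin receptor Tfrc, which reticulocytes shed as they mature, had 2 UMIs in mutant and 0 in wildtype barcodes. Hbq1a and Hbq1b, a near-identical pair of theta-globin genes outside the selection rule, had 19 and 33 UMIs in the mutant and 1 and 0 in the wildtype barcodes.

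Of 10 red cell enzyme genes, 8 were measured against free RNA in the mutant library, and all 8 were higher, under the limit on measured genes given above. Gpx1, a glutathione peroxidase, had 13428 CPM in mutant and 7271 CPM in wildtype barcodes. Bpgm had 10771 CPM (10087 to 11488) in the mutant and 5703 CPM (4074 to 7766) in the wildtype barcodes, against 77.2 and 21.8 CPM in free RNA. Carbonic anhydrase Car2 had 343 UMIs in 106 mutant barcodes and 7 UMIs in 4 wildtype ones. The others were peroxiredoxin Prdx2, biliverdin reductase Blvrb, catalase (Cat), the glyoxalase Hagh and the pyrimidine nucleotidase Nt5c3, with 77 to 239 UMIs in the mutant and 0 to 10 in the wildtype barcodes. Car1 and the red cell pyruvate kinase Pklr had no UMI in the haemoglobin-rich barcodes of either library.

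Of 20 membrane and skeleton genes, 5 were measured against mutant free RNA and all 5 were higher, under the same limit on measured genes. The skeletal protein gene Epb41 had 184 and 17 UMIs, the scaffold gene Mpp1 87 and 4, the anion exchanger Slc4a1 67 and 1, and the erythroid membrane protein gene Tspo2 64 and 5. Tspo2 had no UMI in free RNA of the mutant library, and its level was at least 93.4-fold higher, taken against 3 counts; the exact interval, which also covers the counting error of its 64 UMIs, starts at 73.8. Sptb, which encodes a spectrin chain, had 4 UMIs in the mutant barcodes and 0 in the wildtype ones.

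Of 21 genes linked to reticulocyte maturation, 15 were measured against mutant free RNA and 14 of these were higher, under the same limit on measured genes. Ubb, a polyubiquitin gene, had 19863 CPM in mutant and 10265 CPM in wildtype barcodes. The ubiquitin ligase Mkrn1 had 9873 and 6986 CPM, and the ubiquitin- and Isg15-conjugating enzyme Ube2l6 had 7775 and 4705 CPM. Ube2l6 was 209-fold (123 to 384) above free RNA in the mutant library. Bnip3l, the receptor that directs mitochondria to autophagy in reticulocytes, had 5001 and 4135 CPM, and the autophagy genes Gabarapl2 and Map1lc3b had 3042 and 3007 CPM in the mutant and 2994 and 1426 CPM in the wildtype barcodes.

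**Figure D4:**
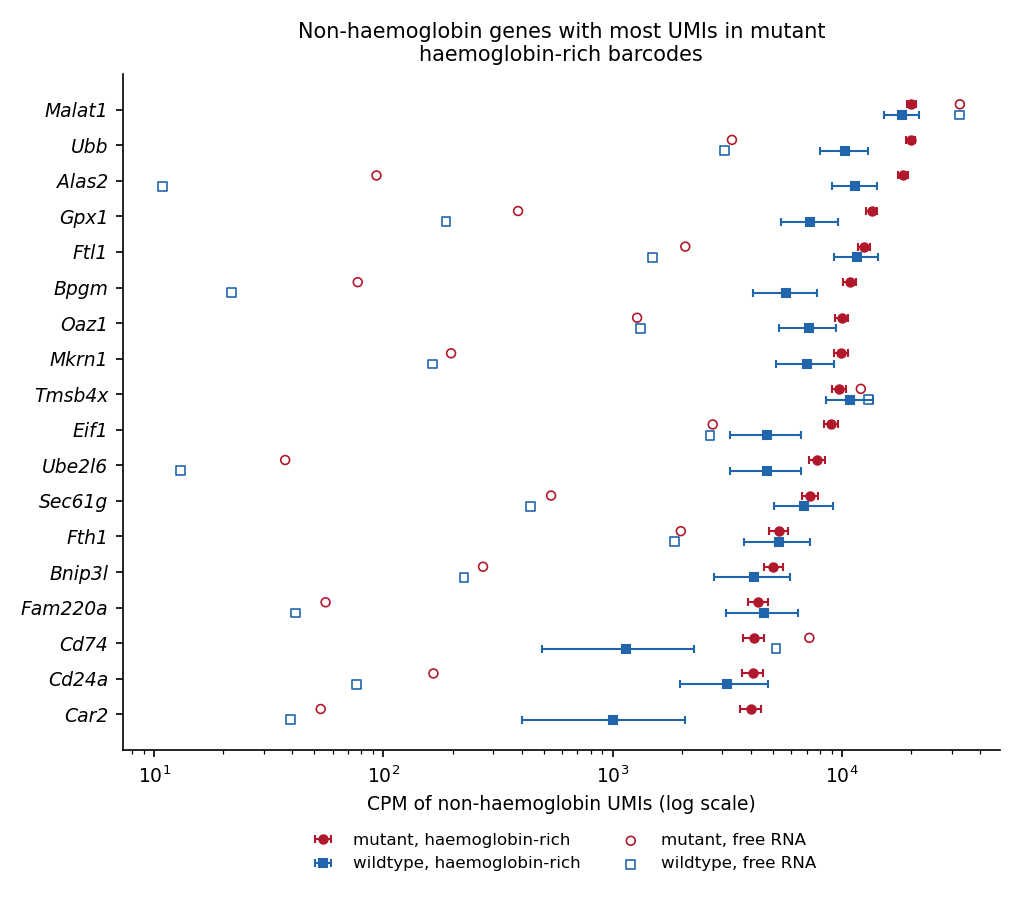
CPM of non-haemoglobin UMIs, on a log axis, for 18 of the 20 non-haemoglobin genes with most UMIs in mutant haemoglobin-rich barcodes, ribosomal and mitochondrial genes aside. Filled symbols are haemoglobin-rich barcodes with 95% exact Poisson intervals (mutant red circles, wildtype blue squares) and open symbols are free RNA of the same library; Alas2 and Bpgm lie far above free RNA, while Malat1 and Cd74 lie below it.

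Several genes outside the lists were also higher than free RNA. Ube2c, an enzyme of the anaphase-promoting system, had 107 UMIs in mutant and 8 in wildtype barcodes, at 234-fold free RNA in the mutant library (63.3 to 1959, against 2 free UMIs). Apol11b had 82 and 3 UMIs and none in mutant free RNA, at least 119.6-fold higher taken against 3 counts, with an exact interval that starts at 95.1. Fam220a had 4301 and 4562 CPM. The surface gene Cd24a had 4080 and 3137 CPM and the translocon subunit Sec61g 7239 and 6843 CPM, at 24.7-fold and 13.5-fold mutant free RNA. The antiviral gene Rsad2, which interferon induces, had 166 UMIs in 102 mutant barcodes and 7 UMIs in 3 wildtype ones. The guanine deaminase gene Gda had 59 and 10 UMIs, and Rec114, known for meiotic recombination, had 43 and 9.

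Listed genes of earlier erythroid stages were mostly at or near 0. Among the erythroid transcription factors Gata1 had 2 UMIs in the mutant barcodes and Klf1 and Tal1 none, and all of these were at 0 in the wildtype barcodes. Lmo2 was the 1 factor measured, with 39 and 2 UMIs, and it was 7.76-fold above mutant free RNA. Of 11 genes of early progenitors and of cycling cells, 6 had no UMI in the mutant barcodes, among them Kit, Mki67 and Top2a, and the 11 together gave 14 UMIs in mutant and 0 in wildtype barcodes. Other genes known from cell division were higher than mutant free RNA. These include Ube2c, given above, and, chosen after their values were seen, Nusap1, with 23 UMIs in mutant haemoglobin-rich barcodes and 0 in mutant free RNA, and Pttg1, with 45 UMIs, at 5.79-fold free RNA. The erythropoietin receptor gene Epor was at 0 in both libraries' haemoglobin-rich barcodes. A count of 0 allows up to 3 UMIs over all haemoglobin-rich barcodes of a library.

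As shares of non-haemoglobin UMIs, summed leukocyte lists were mostly below their level in free RNA. In the mutant library the 162 higher genes took 28.7% of these UMIs, against 2.70% in free RNA. That lowers the share of all other genes, also in the comparisons with free RNA below, and its part in these ratios was not tested. Of 64 genes in the T cell, B cell, NK cell, monocyte, neutrophil and platelet lists, 25 were measured in the mutant library, none were higher than free RNA, and Nkg7, an NK cell granule gene, was lower. Over all 1050 measured genes 15.4% were higher and 10.8% lower, with a median log2 difference of -0.18. The measured T, B and NK cell genes had median log2 differences of -0.33, -0.60 and -0.21. On the CPM scale, the summed T cell list was at 0.724 of free RNA in the mutant library (0.629 to 0.830), the B cell list at 0.655 (0.565 to 0.756), the NK cell list at 0.850 (0.739 to 0.974) and the monocyte list at 0.517. In the wildtype library the T, B and NK cell lists were at 1.11 (0.779 to 1.55), 0.555 (0.265 to 1.02) and 0.589 (0.427 to 0.792). Neutrophil genes gave 5 UMIs in mutant and 0 in wildtype barcodes, and platelet genes gave 57 and 0. The nuclear RNA Malat1, with 1718 and 128 UMIs, was at 0.615 of free RNA in the mutant library and 0.564 in the wildtype library. In mutant barcodes with more than 80% haemoglobin and under 5 UMIs of each leukocyte and platelet list, Malat1 was at 0.400 (0.373 to 0.428), and the T, B and NK cell lists were at 0.662, 0.445 and 0.967.

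The genes furthest below free RNA were led by Actb, the cytoplasmic actin gene, with 3987 CPM in mutant haemoglobin-rich barcodes and 21852 CPM in mutant free RNA (0.182-fold, 0.163 to 0.203). Barcodes of 21 to 100 UMIs held 6762 CPM of Actb, so part of that distance depends on which low barcodes stand for free RNA. Srrm2, Pdcd4, Actr3 and Myh9, also among them, were at 0.187, 0.239, 0.298 and 0.202 of free RNA. Of the 113 lower genes, 45 were also lower against barcodes of 21 to 100 UMIs, and of the 162 higher genes, 146 were also higher. Ribosomal protein genes made up 23.4% of non-haemoglobin UMIs in both mutant and wildtype haemoglobin-rich barcodes, against 28.9% and 27.6% in free RNA and 32.9% and 33.0% in the other barcodes. Mitochondrially encoded genes made up 3.51% in mutant and 5.65% in wildtype haemoglobin-rich barcodes, against 7.89% and 7.26% in free RNA. Against barcodes of 21 to 100 UMIs the mitochondrial level of the mutant haemoglobin-rich barcodes was 1.23-fold, on the other side of 1.

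Some haemoglobin-rich barcodes also carried RNA of another cell. At least 5 UMIs of 1 leukocyte or platelet list were found in 11 of 361 mutant barcodes (3.05%, 1.53 to 5.39) and 4 of 26 wildtype ones (15.4%, 4.36 to 34.9), against 0.142% and 0.0818% of the barcodes with 21 to 100 UMIs. The depth was unlike: those low barcodes held medians of 42 and 34 non-haemoglobin UMIs, against 163 and 143. NK cell genes were 10651 CPM of wildtype free RNA, and no wildtype haemoglobin-rich barcode had more than 6 NK cell UMIs. In the mutant library 5 barcodes passed for B cell, 4 for T cell, 2 for NK cell and 1 for platelet genes, with 1 barcode passing for both T and B cell genes, and in the wildtype library 1 passed for T cell and 3 for NK cell genes. Those 11 had a median of 62.2% haemoglobin and 866 genes, whereas the other 350 mutant barcodes had 92.4% and 126 genes. The single barcode with most B cell UMIs had 31 of them beside 62.2% haemoglobin and 1093 genes, the largest gene number of all haemoglobin-rich barcodes. Of the 12 mutant barcodes at 80% haemoglobin or less, 8 carried RNA of another type. No doublet caller was run, and 2 cells in a droplet cannot be told apart from 1 cell with free RNA by these counts alone.

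How the other RNA varied with the size of a barcode was examined in a stricter set with more than 80% haemoglobin and under 5 UMIs of each leukocyte and platelet list, which kept 346 mutant and 22 wildtype barcodes. In quartiles of UMIs, with medians of 1069, 1804, 2803.5 and 4275 UMIs in the mutant library, the red cell lists gave 14.0, 23.0, 40.4 and 73.8 UMIs per barcode. The T, B and NK cell lists gave 0.851, 1.17, 1.47 and 2.48, and barcodes of 21 to 100 UMIs gave 0.505. In the wildtype library, with 5 or 6 barcodes per quartile, the red cell lists gave 9.17, 12.7, 29.2 and 47.4 and the lymphocyte lists 1, 1.67, 2.20 and 3.60, against 0.626 in barcodes of 21 to 100 UMIs. Both kinds were thus highest in the quartile with most UMIs. The median haemoglobin share of the mutant quartiles was 91.6%, 92.8%, 92.8% and 92.4%. Since the quartiles were cut on UMIs at a nearly constant haemoglobin share, non-haemoglobin UMIs had to rise with them. Their medians were 96, 128, 192.5 and 312 in the mutant and 57, 112, 153 and 274 in the wildtype library. The rise of both kinds is therefore a description only. Where the lymphocyte UMIs above the low barcodes came from was not tested.

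**Figure D5:**
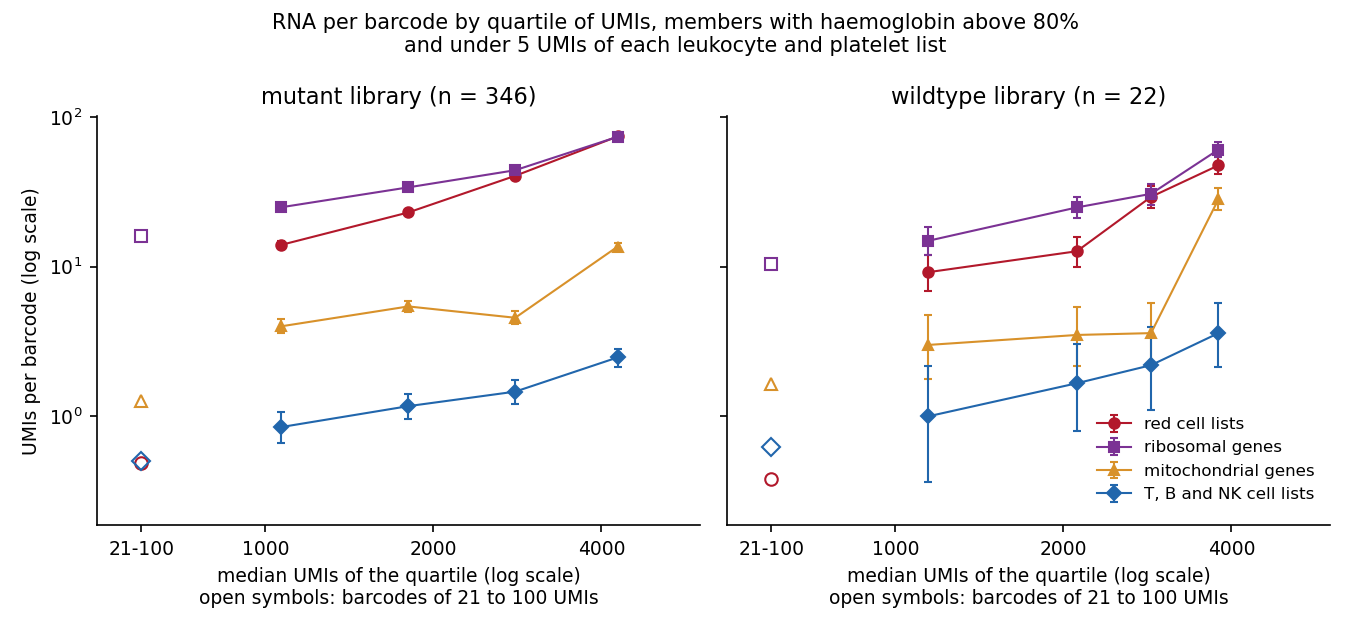
UMIs per barcode (log axis) of the red cell lists, ribosomal genes, mitochondrial genes and T, B and NK cell lists in quartiles of the stricter set, against the median UMIs of the quartile (log axis), in the mutant library (left) and the wildtype library (right), with 95% exact Poisson intervals. Open symbols at the left are barcodes of 21 to 100 UMIs. All 4 kinds of RNA are highest in the quartile with most UMIs, which cutting the quartiles on UMIs favours. Red cell genes lie further above the open symbols than lymphocyte genes do.

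The RNA of mutant and wildtype haemoglobin-rich barcodes was compared within the limit of 1 library each and of 26 wildtype barcodes. Of 581 genes measured over both libraries, 22 were higher in the mutant barcodes (3.79%) and 22 were lower (3.79%). Of the 22 higher genes, 18 were also above free RNA in the mutant library, and of the 22 lower genes 2 were, Cdr2 and Rec114. Among all genes measured against mutant free RNA, 162 of 1050 were above it (15.4%). Both comparisons use the same mutant counts, so a gene high there tends to pass both, and these overlaps are a description only. Leaving out only the barcodes with at least 5 UMIs of a leukocyte or platelet list gave 13 higher and 12 lower genes. The stricter set, which also needs more than 80% haemoglobin, gave 13 higher and 13 lower genes of 446 measured, with 7 of each shared with the lists over all haemoglobin-rich barcodes.

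Of the 36 measured red cell genes 32 had a ratio of mutant to wildtype above 1, as had 300 of all 581 measured genes. With 85789 mutant and 7014 wildtype UMIs, genes reached the 20-UMI minimum mostly through their mutant counts. A gene lower in the mutant barcodes could therefore miss it more easily. Over the 36 red cell genes the median log2 ratio of mutant to wildtype was 0.62, with 5 higher and 1 lower, while the median over all 581 genes was -0.12. In the stricter set these medians were 0.47 and -0.12, and the red cell lists made up 19.2% (18.9 to 19.5) of non-haemoglobin UMIs in mutant and 14.99% (13.8 to 16.2) in wildtype barcodes. The stricter set had 83.5 non-haemoglobin UMIs per 1000 haemoglobin UMIs in the mutant library and 65.8 in the wildtype one. Haemoglobin in free RNA, the median UMIs per barcode and the share of barcodes with RNA of another cell, all given above, differed between the libraries too, and their part in these differences was not tested.

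Car2 was 4.01-fold higher in mutant than in wildtype haemoglobin-rich barcodes (1.92 to 10.0), with 296 and 2 UMIs in the stricter set. Eif5, a translation initiation factor gene, had 325 and 4 UMIs, a 6.64-fold difference (2.57 to 24.5), and Ube2b, a ubiquitin-conjugating enzyme gene, had 313 and 9 UMIs, a 2.84-fold difference (1.48 to 6.28). In free RNA these ratios were 1.36 for Car2, 1.43 for Eif5 and 1.07 for Ube2b. Counted per haemoglobin UMI in the stricter set, the ratios were 9.50 for Car2 (2.61 to 78.8), 10.0 for Eif5 (2.76 to 83.3) and 6.12 for Ube2b (2.07 to 29.8). Nt5c3 had 77 UMIs in mutant and 0 in wildtype barcodes.

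Isg15, Rsad2 and Isg20, which interferon induces, do not stand for all such genes, since the other named genes were not screened for this trait. Isg15 had 148 UMIs in 78 mutant barcodes and 3 UMIs in 3 wildtype ones (4.03-fold, 1.35 to 19.8). In the stricter set, with 144 and 2 UMIs, its interval reached 1 (0.989 to 30.3). Rsad2, with a ratio of 1.94 (0.920 to 4.90) over all haemoglobin-rich barcodes, was higher in the stricter set with 157 and 1 UMIs (7.94-fold, 1.40 to 315). Isg20 did not differ beyond counting error, at 3031 CPM in mutant and 2566 CPM in wildtype barcodes (1.18-fold, 0.733 to 2.02). In free RNA, Rsad2 had 8 mutant and 2 wildtype UMIs (ratio 4.89, 0.976 to 47.3) and Isg20 15 and 6 (3.06, 1.12 to 9.61). Isg15 had 14 and 7 there (2.44, 0.923 to 7.16).

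The main red cell transcripts differed less. Alas2 was 1.62-fold higher in the mutant barcodes (1.29 to 2.05), Bpgm 1.89-fold (1.38 to 2.66) and Gpx1 1.85-fold (1.39 to 2.50), all under the 2-fold line. Fech was at 0.954 (0.628 to 1.51), Ftl1 at 1.08 (0.858 to 1.37) and Bnip3l at 1.21 (0.830 to 1.83), with intervals that include 1. In the stricter set the Alas2 ratio was 1.21 (0.944 to 1.59), and counted per haemoglobin UMI it was 1.54 (1.20 to 2.02). Per haemoglobin UMI, Bpgm was at 1.82 (1.27 to 2.69) and Gpx1 at 2.05 (1.46 to 2.98) in that set. Slc25a37 was at 0.364 on the CPM scale there (0.211 to 0.673), with 108 UMIs in mutant and 15 in wildtype barcodes, and at 0.627 (0.365 to 1.16) over all haemoglobin-rich barcodes.

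Several genes that were lower in the mutant barcodes are known from leukocytes. Bcl2, which encodes a survival protein, had 12 UMIs over the 361 mutant barcodes and also 12 over the 26 wildtype ones (0.0818-fold, 0.0336 to 0.199). In the stricter set 6 mutant and 3 wildtype UMIs of Bcl2 remained, too few to be measured, at a ratio of 0.101 (0.0216 to 0.625). Ldha had 20 and 7 UMIs, the T cell kinase Lck 15 and 5, and the NK cell granzyme Gzma 39 and 9. In the stricter set Ldha (15 and 3 UMIs) and Lck (13 and 2) fell short of 20 UMIs, so neither could be called. Their ratios there were 0.253 (0.0715 to 1.36) and 0.329 (0.0744 to 3.00). Gzma was measured there and not called lower, at 0.442 (0.158 to 1.71). Gzma in free RNA was at 0.218 of the wildtype level in the mutant library, and AW112010, with 43 and 11 UMIs, was at 0.387 there. Shisa5, Fxyd5 and AW112010 were lower in both sets. So were Cdr2 and Rec114, which in mutant barcodes were 25.2-fold (8.60 to 100) and 188-fold (32.0 to 7605) above free RNA. Conversely Cd74, the class II invariant chain gene of B cells, with 354 and 8 UMIs, and Actb, with 342 and 12, were higher over all haemoglobin-rich barcodes and not in the stricter set.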

How the data were processed

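Per the labels, 2 libraries of mouse blood mononuclear cells were made with the 10x Genomics 3′ v2 chemistry, 1 per genotype. The deposited values are UMI counts per gene and barcode, unfiltered over 737280 listed barcodes and 27998 genes, made with Cell Ranger 2.1.1 on mm10 per the submitters' processing notes; no other normalization of the counts by the authors is recorded. Depth was 14513059 UMIs (mutant) and 15385199 UMIs (wildtype). The haemoglobin-rich barcodes and all gene lists were chosen with earlier results of these data known, and support nothing by their choice.

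The minimum was 785 UMIs per barcode. Counts were summed over barcodes and compared as CPM of non-haemoglobin UMIs, with exact Poisson, Clopper-Pearson and exact conditional ratio intervals at the 95% level; a count of 0 was taken as 3 counts for a bound. With 1 library per genotype no count model was fitted and no p-value was made. Log2 values were computed after adding 0.5 UMIs. Genes named are all haemoglobin genes, the markers, the 20 genes with most UMIs in the mutant barcodes, the 20 furthest above and 10 furthest below free RNA, and 10 each way between libraries, ranked by the interval bound nearest 1, with ribosomal, mitochondrial, clone-named and antigen-receptor genes left out of the rankings, plus Mvk and list genes. Of 169 list genes, 168 matched a symbol, and Ahsp was not analysed here. Some genes that this choice takes in are counted in the lists but not reported here by name. Python 3.11.15, numpy 2.4.6, scipy 1.17.1 and Biopython 1.88 were used, and the comparison was tested on simulated data. Coordinates are GENCODE M21, and upstream sequences are RefSeq (GRCm38.p6).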

Additional observations from a re-analysis of the deposited data

How the results depend on the processing

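No paired analysis was possible because each genotype has 1 library and the replicate numbers only name samples; for the same reason no replicate could be left out. Under 12 alternatives planned with the design and 1 chosen after seeing the data (above 80% haemoglobin and under 5 UMIs of each leukocyte and platelet list), 104 of 137 values of the main comparisons moved by less than their interval or by less than 1.5 times. With at least 500 UMIs the mutant median was 119 genes and 146.5 non-haemoglobin UMIs, and with at least 1500 UMIs 152 and 217. With at least 200 genes, 69 mutant and 7 wildtype barcodes remained, with medians of 254 and 308 genes, 402 and 440 non-haemoglobin UMIs and 91.1% and 90.8% haemoglobin; 103 and 10 genes were then higher than free RNA, 34 and 2 lower, and 11 lower in mutant than in wildtype barcodes. Above 80% haemoglobin, 9 wildtype genes were lower than free RNA. Without ribosomal and mitochondrial genes 179 mutant genes were lower than free RNA. A minimum of 50 UMIs per gene left 96 mutant and 9 wildtype genes higher and 27 and 1 lower than free RNA, and 10 lower in mutant than in wildtype barcodes; no minimum gave 282 and 169 higher, 274 and 12 lower, and 74 lower between libraries. Without barcodes carrying RNA of another cell, 13 genes were higher and 12 lower in mutant than in wildtype barcodes, and 13 and 13 in the stricter set. Against barcodes of 21 to 100 UMIs, the direction changed for the mitochondrial list, at 1.23, and for the platelet list, at 0.424. The cause of these changes was not tested, apart from the fewer or more genes that a minimum leaves. The 26 wildtype barcodes and their 7014 non-haemoglobin UMIs limit every comparison between libraries.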
